A study of Rattus norvegicus with 20 samples.

Results

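Glycerolipid and phospholipid synthesis genes were followed in kidney cortex and left ventricle from rats on a high-salt diet given vehicle or Maresin 1 (MaR1), a lipid mediator made from docosahexaenoic acid. The 35 genes were taken by symbol from the deposited expression table, and all 35 were found among its 30560 genes. They were chosen for their enzymatic roles, with earlier results of these data known. The animals were male rats whose genotype label reads WT, and the study calls them hypertensive; a strain is not named in the labels. Each rat received a blood pressure telemeter at 8 weeks of age, and all 10 rats ate 4% NaCl chow for 3 weeks. Over the same 3 weeks a subcutaneous osmotic minipump delivered vehicle to 5 rats (RB030 to RB034) and MaR1, at up to 1.3 µg/kg/day, to the other 5 (RB035 to RB039). No group without high salt was analysed here, so every value describes salt-loaded animals. One cortex library and 1 left ventricle library per rat gave 20 poly-A RNA libraries in 4 groups of 5. Bulk tissue was sequenced, so fewer cells of a type and less RNA per cell cannot be told apart.

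These enzymes build the membrane and storage lipids that share a glycerol backbone. Acyltransferases add fatty acids to glycerol-3-phosphate to give phosphatidic acid, which is either dephosphorylated by lipins to diacylglycerol or activated with CTP. Diacylglycerol becomes triacylglycerol or, through the Kennedy pathway, phosphatidylcholine and phosphatidylethanolamine, while CDP-diacylglycerol leads to phosphatidylinositol and to cardiolipin, the signature phospholipid of mitochondria. Lysophospholipid acyltransferases then exchange the fatty acids of finished phospholipids. Both organs are rich in mitochondria and burn fatty acids, the kidney mainly in its proximal tubules.

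Values are FPKM (fragments per kilobase of gene length, scaled by library size), so levels can be compared between genes. Differences are on the log2(FPKM + 0.5) scale with their standard error (SE), and each p-value is from limma with Benjamini-Hochberg adjustment over all genes tested, called at an adjusted p of at most 0.05. Assigned fragments ranged from 19383232 to 30342034 per library. The organ labels matched their markers: the summed proximal tubule markers reached 3674 to 6202 FPKM in the 10 kidneys, and the summed ventricular myocyte markers 8512 to 15555 FPKM in the 10 hearts against at most 1.85 FPKM in kidneys. Several libraries also held markers of neighbouring tissue. Adipocyte markers (8 genes) summed to 11.4 to 24.0 FPKM in vehicle kidneys and, without overlap, to 28.7 to 69.7 FPKM in 4 MaR1 kidneys and 521 FPKM in the MaR1 kidney of RB039. In the 10 hearts the same genes summed to 271 to 384 FPKM. Inner medulla markers (6 genes) summed to 2.08 to 5.25 FPKM in vehicle kidneys and 7.08 to 35.9 FPKM in MaR1 kidneys, without overlap. Urothelium markers (7 genes) summed to 0.410 to 4.87 FPKM in vehicle kidneys and, with overlap, to 0.886 to 90.6 FPKM in MaR1 kidneys. The MaR1 kidneys of RB036 (17.3 FPKM), RB038 (33.9 FPKM) and RB039 (90.6 FPKM) were above every vehicle kidney in that sum. Atrial markers (5 genes) summed to 639 to 3424 FPKM in 5 hearts (vehicle RB031, RB033 and RB034, MaR1 RB035 and RB038) and to 28.1 to 85.5 FPKM in the other 5.

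The order of levels was led by the same enzyme in both organs. Chpt1, which joins CDP-choline to diacylglycerol to make phosphatidylcholine, had the highest mean of the set in the kidney, 96.9 ± 16.1 FPKM (SD, n = 10), and in the heart, 85.9 ± 15.5 FPKM (SD, n = 10). In the kidney Agpat1 (40.1 ± 4.88 FPKM), Crls1 (38.6 ± 7.16 FPKM) and Lpcat3 (31.4 ± 3.05 FPKM) came next, and the ranges of Agpat1 and Crls1 overlapped. In the heart Pcyt1a (42.3 ± 5.20 FPKM), Pcyt2 (29.0 ± 3.75 FPKM) and Lpcat3 (24.2 ± 1.95 FPKM) came next, and the ranges of Pcyt2 and Lpcat3 overlapped. The lowest levels belonged to the monoacylglycerol acyltransferases Mogat1 and Mogat2, of which Mogat2 is known for fat absorption in the intestine. Mogat1 reached at most 0.190 FPKM in a kidney and 0.392 FPKM in a heart, and Mogat2 at most 0.182 and 0.649 FPKM. Both stayed under the mean of 1 FPKM needed for a test, so 33 of the 35 genes were tested between organs.

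**Figure D1:**
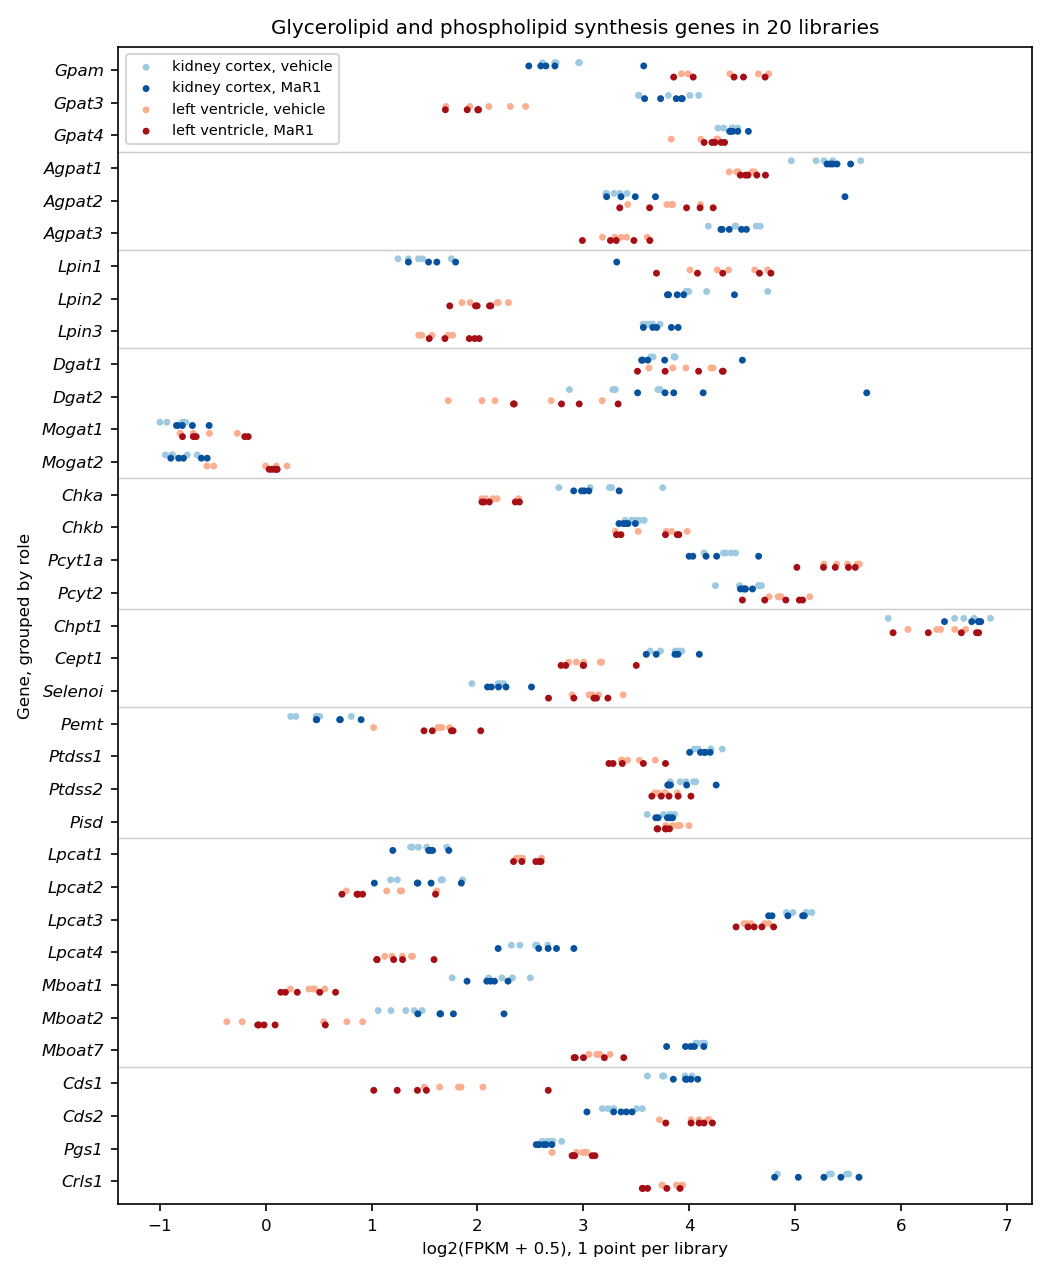
Levels of the 35 genes as log2(FPKM + 0.5) on the horizontal axis, 1 point per library, with genes ordered by role and the 4 groups of 5 libraries in 4 colours. Chpt1 lies furthest right in both organs, Mogat1 and Mogat2 furthest left, and the kidney point of RB039 stands to the right of the other kidneys for Agpat2, Lpin1 and Dgat2.

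Organ identity separated most of these genes. In vehicle rats, 28 of the 33 tested genes differed between left ventricle and kidney cortex, 10 higher and 18 lower in the ventricle. Over all 12978 genes tested, 77.0% were called, 37.0% higher and 40.0% lower, so the share of members called (28 of 33) was near the background. The 5 ventricles and 5 kidneys did not overlap for 25 of the 33 members, against 65.9% of all genes. The median difference was -0.31 for the members and -0.03 for all genes, and 42.4% of the members against 37.2% of all genes differed by more than 1 in either direction. The result repeated in the other animals: in MaR1 rats 27 of 33 members were called (9 higher, 18 lower) where 78.2% of 13006 genes were (37.9% higher, 40.3% lower), and 24 members had no overlap (66.8% of all genes). Of these, 26 were called in both arms, every one with the same sign. Agpat2 and Ptdss2 were called in vehicle rats only and Lpcat2 in MaR1 rats only, and whether the organ difference of these 3 genes depended on treatment is covered by the test of the difference of responses given further on, which called none of them.

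The direction of small organ differences depended on scaling. The FPKM of a library summed to 353767 to 458813 in kidneys and 554482 to 742734 in hearts. When every library was brought to the same sum, the median difference of all genes moved by -0.60 in vehicle rats. Of the 33 members 6 were then called higher and 25 lower in the ventricle, where 2507 of all 12978 genes were called higher and 8095 lower. Under that scaling the called differences of Agpat2, Pcyt2 and Pgs1 changed sign and that of Cds2 no longer passed the test, whereas Gpam, Lpin1, Pcyt1a, Selenoi, Pemt and Lpcat1 were still higher in the ventricle.

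**Figure D2:**
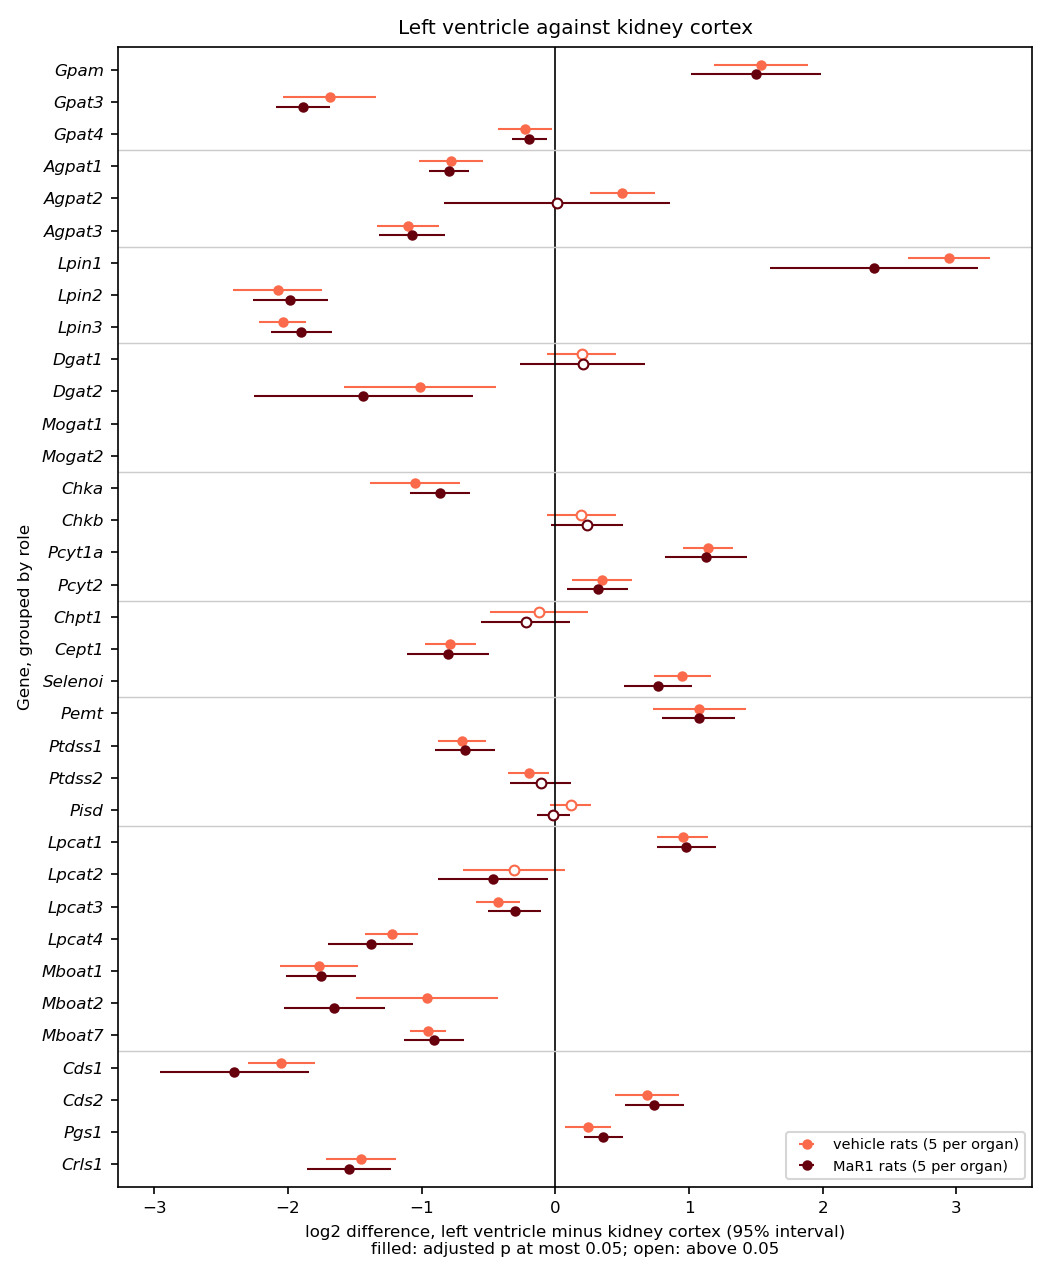
Differences between left ventricle and kidney cortex on the log2(FPKM + 0.5) scale with 95% intervals, for vehicle rats (light) and MaR1 rats (dark), 5 libraries per organ and arm; filled points have an adjusted p of at most 0.05. Lpin1 is furthest to the right (2.95 in vehicle rats). Lpin2 and Lpin3 lie near -2 in both arms, and Cds1 lies near -2 in vehicle rats and further left in MaR1 rats. With equal summed FPKM the right-hand points of Agpat2, Pcyt2 and Pgs1 move to the left of 0.

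In 6 of 11 enzyme families at least 1 paralogue was called higher and 1 lower in vehicle hearts, and in 5 of 11 in MaR1 rats. These were the glycerol-3-phosphate acyltransferases, lipins, CDP-diacylglycerol synthases, phosphotransferases and Lpcat enzymes in both arms, and the lysophosphatidic acid acyltransferases in vehicle rats; with equal summed FPKM Agpat2 and Cds2 were no longer called higher. Of all genes 37.0% were called higher and 40.0% lower in vehicle hearts, and 37.9% and 40.3% in MaR1 rats. How many families drawn from all genes would hold opposed calls was not computed. The promoters of the lipins, of Gpam and Gpat3 and of both Cds genes are shown because these families also differed in which paralogue led. Gpat4, which led its family in the kidney, had no matched promoter entry and is not shown. Each sequence is the RefSeq stretch of the GRCr8 assembly from 250 bases before to 50 bases after the gene's start, read 5′ to 3′ on the gene's strand. Capitals mark matches, on either strand, to GGGCGG (a GC box), CCAAT (an NF-Y box) or AGGTCA (a nuclear receptor half-site), with no overlaps between them, and lower case holds none of these. The ventricle-high member of each family comes before the kidney-high members. Lpin1 is at chr6:45108893-45109192 (minus strand), Lpin2 at chr9:118530105-118530404 (plus), Lpin3 at chr3:169964800-169965099 (plus), Gpam at chr1:264175862-264176161 (minus), Gpat3 at chr14:9070816-9071115 (minus), Cds2 at chr3:139967620-139967919 (plus) and Cds1 at chr14:8187194-8187493 (minus).
Lpin1: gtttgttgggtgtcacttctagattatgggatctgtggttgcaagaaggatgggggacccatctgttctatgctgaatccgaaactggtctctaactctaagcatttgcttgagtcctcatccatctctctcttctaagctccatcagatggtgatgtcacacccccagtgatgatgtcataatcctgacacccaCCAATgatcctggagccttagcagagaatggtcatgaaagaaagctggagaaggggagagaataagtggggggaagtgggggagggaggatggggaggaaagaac
Lpin2: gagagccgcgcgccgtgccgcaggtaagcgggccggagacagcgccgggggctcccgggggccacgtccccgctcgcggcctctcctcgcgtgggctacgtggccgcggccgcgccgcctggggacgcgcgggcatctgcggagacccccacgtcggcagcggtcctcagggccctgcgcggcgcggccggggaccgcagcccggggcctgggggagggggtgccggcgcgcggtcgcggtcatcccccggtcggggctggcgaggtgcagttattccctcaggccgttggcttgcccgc
Lpin3: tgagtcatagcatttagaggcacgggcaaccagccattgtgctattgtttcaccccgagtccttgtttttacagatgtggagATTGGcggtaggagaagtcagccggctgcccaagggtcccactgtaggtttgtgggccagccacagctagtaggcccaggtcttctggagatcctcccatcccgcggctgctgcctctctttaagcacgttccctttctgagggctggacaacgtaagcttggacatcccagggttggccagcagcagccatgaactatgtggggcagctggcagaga
Gpam: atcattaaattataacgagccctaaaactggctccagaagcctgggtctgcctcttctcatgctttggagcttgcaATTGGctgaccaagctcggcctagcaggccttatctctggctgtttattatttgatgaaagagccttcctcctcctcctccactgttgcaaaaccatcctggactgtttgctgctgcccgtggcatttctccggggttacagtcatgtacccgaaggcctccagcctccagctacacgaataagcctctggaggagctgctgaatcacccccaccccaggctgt
Gpat3: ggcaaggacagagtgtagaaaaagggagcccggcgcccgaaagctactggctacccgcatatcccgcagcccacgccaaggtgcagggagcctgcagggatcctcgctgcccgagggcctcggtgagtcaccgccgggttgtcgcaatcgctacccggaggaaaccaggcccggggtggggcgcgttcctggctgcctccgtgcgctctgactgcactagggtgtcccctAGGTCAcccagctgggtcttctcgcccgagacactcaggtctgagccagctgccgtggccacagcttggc
Cds2: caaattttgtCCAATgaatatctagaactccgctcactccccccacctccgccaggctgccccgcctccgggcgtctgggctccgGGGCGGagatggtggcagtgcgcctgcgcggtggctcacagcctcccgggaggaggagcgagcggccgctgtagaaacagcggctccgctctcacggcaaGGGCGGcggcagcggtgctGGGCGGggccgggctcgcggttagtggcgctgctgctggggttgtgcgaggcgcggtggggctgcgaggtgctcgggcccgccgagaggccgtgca
Cds1: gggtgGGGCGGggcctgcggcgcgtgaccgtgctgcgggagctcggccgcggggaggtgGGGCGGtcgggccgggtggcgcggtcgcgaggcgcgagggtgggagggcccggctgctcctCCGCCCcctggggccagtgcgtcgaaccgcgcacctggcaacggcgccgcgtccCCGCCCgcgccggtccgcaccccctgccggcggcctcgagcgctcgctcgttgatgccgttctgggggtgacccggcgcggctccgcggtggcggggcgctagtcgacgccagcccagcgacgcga
The kidney-high promoters of Lpin2, Cds1, Gpat3 and Lpin3 were 80.0%, 81.0%, 67.0% and 56.3% G and C. The ventricle-high promoters of Lpin1, Gpam and Cds2 held 49.0%, 52.7% and 71.7%, against a median of 51.7% over all promoters in the RefSeq table. Over all members with an entry, the median was 64.3% for the 10 called higher in vehicle hearts and 68.3% for the 15 called lower, with ranges that overlapped. A CCAAT box was found in the Lpin1, Gpam, Cds2 and Lpin3 promoters, in 6 of the 10 called higher and 7 of the 15 called lower, and in 37.5% of all 33469 promoters of this length. Cds1 carried 4 and Cds2 3 GC boxes, a motif found in 33.1% of all promoters and in 19 of the 29 members with a promoter entry. The AGGTCA of Gpat3 is 1 of 4 among the 29 members and occurs in 16.2% of all promoters. A match to the MEF2 site of muscle genes, to the HNF1 site of kidney and liver genes or to a direct repeat of AGGTCA spaced by 1 base was found in none of the 29 windows and in 0.137%, 0.00299% and 0.0538% of all promoters. Of the other motifs searched, TATAAA was in the Chkb window only (14.2% of all promoters), CACGTG in the Crls1 window only (6.42%), and AAGGTCA, which contains AGGTCA (4.61%), and the cAMP response element (1.83%) in none of the 29. These matches describe the letters of the windows, and factor binding was not measured.

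Glycerol-3-phosphate acyltransferases catalyse the entry step. Gpam, the mitochondrial enzyme, measured 5.63, 7.26, 6.20, 6.14 and 7.30 FPKM in vehicle kidneys and 15.4, 24.7, 26.5, 14.7 and 20.4 FPKM in vehicle hearts, in the order RB030 to RB034. Every heart lay above every kidney, by 1.54 ± 0.16 (SE, adjusted p = 2.65e-06). The Gpam means were 6.51 FPKM in vehicle kidneys and 20.3 FPKM in vehicle hearts. Gpat3, an enzyme of the endoplasmic reticulum, measured 10.99, 16.5, 11.02, 13.5 and 15.6 FPKM in the kidneys and 3.81, 4.99, 4.46, 2.75 and 3.30 FPKM in the hearts. All 5 kidneys were above all 5 hearts, and the difference was -1.69 ± 0.16 (adjusted p = 1.06e-06). Gpat4, the other reticulum enzyme, was nearly level at 20.3 ± 1.08 FPKM in kidneys and 17.3 ± 2.18 FPKM in hearts, a difference of -0.23 ± 0.09 (adjusted p = 0.0380) that no longer passed the test without RB030, RB031, RB032 or RB034 (differences of -0.13 to -0.25). As a share of the summed FPKM of the 3 enzymes, Gpam stood at 16.1 ± 0.87% in vehicle kidneys and 48.3 ± 7.80% in vehicle hearts (SD, n = 5), and Gpat3 at 33.3 ± 3.20% and 9.26 ± 1.61%.

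The lysophosphatidic acid acyltransferases make phosphatidic acid. Agpat1 (-0.78 ± 0.11) and Agpat3 (-1.10 ± 0.11) were lower in vehicle hearts, and neither gene's groups overlapped. Agpat2, whose loss causes lipodystrophy, went the other way. Its FPKM was 10.2, 9.68, 8.83, 9.28 and 8.78 in vehicle kidneys and 13.7, 13.9, 13.3, 10.2 and 16.7 in vehicle hearts. The lowest heart was just above the highest kidney, and the difference of 0.50 ± 0.11 (adjusted p = 0.00129) turned to -0.12 with equal summed FPKM. Fragments of Agpat1 and Agpat2 cannot be told from those of Egfl8 and Egfl7, which overlap them on the opposite strand, because strandedness is not stated. In MaR1 rats Agpat2 differed by 0.01 ± 0.38 between the organs, and by 0.33 without RB039.

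Lipins, the phosphatidate phosphatases, gave the widest contrast of the set. Lpin1, which also acts as a coactivator of fatty acid oxidation genes, measured 2.87, 1.88, 2.29, 2.22 and 2.04 FPKM in vehicle kidneys and 18.7, 24.1, 26.3, 15.6 and 20.2 FPKM in vehicle hearts. The groups lay far apart, by 2.95 ± 0.14 (adjusted p = 1.88e-09). The Lpin1 means were 2.26 FPKM in vehicle kidneys and 21.0 FPKM in vehicle hearts. Lpin2 measured 26.3, 15.2, 15.2, 15.5 and 17.4 FPKM in the kidneys and 4.40, 3.11, 3.31, 4.08 and 4.05 FPKM in the hearts. The kidneys were higher throughout, with RB030 above the rest, and the difference was -2.08 ± 0.15 (adjusted p = 1.03e-07). Lpin3 followed Lpin2 at -2.04 ± 0.08 (adjusted p = 3.00e-10), with 11.3 to 12.7 FPKM in kidneys and 2.23 to 2.90 FPKM in hearts. Lpin1 made up 7.07 ± 0.65% of the lipin total in vehicle kidneys and 76.3 ± 4.32% in vehicle hearts, Lpin2 55.2 ± 4.38% and 14.3 ± 3.87%, and Lpin3 37.8 ± 4.21% and 9.34 ± 0.81%. In the deposited table, whose genome build no label names, Lpin1 spans chromosome 6, 39312748 to 39417097, and Lpin2 chromosome 9, 111083745 to 111158193.

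The diacylglycerol acyltransferases complete triacylglycerol. Dgat1 did not pass the test in either arm (0.20 ± 0.12 and 0.20 ± 0.21), and its sign turned with equal summed FPKM (-0.43 and -0.40); its fragments cannot be told from those of Hsf1 on the opposite strand. Dgat2, the enzyme tied to newly made fatty acids, was lower in hearts (-1.01 ± 0.26, adjusted p = 0.00352), although the groups overlapped. Its kidneys measured 6.81, 12.5, 9.36, 9.21 and 12.7 FPKM and its hearts 3.62, 5.98, 3.99, 2.80 and 8.56 FPKM. The heart of RB034 was above the kidney of RB030.

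The Kennedy pathway begins with choline kinases and continues with the enzymes that form CDP-choline and CDP-ethanolamine. Chka was lower in vehicle hearts (-1.05 ± 0.15, adjusted p = 5.05e-05), while Chkb, the isoform whose loss causes a muscular dystrophy, stood at 0.19 ± 0.12 with overlapping groups and did not pass the test. Chkb was called without RB033 (0.27) and had the opposite sign with equal summed FPKM (-0.43). Pcyt1a, the rate-limiting enzyme of phosphatidylcholine synthesis, measured 21.2, 20.6, 17.1, 19.5 and 19.9 FPKM in kidneys and 44.7, 47.6, 48.3, 38.2 and 41.5 FPKM in hearts. All hearts were far above all kidneys, by 1.14 ± 0.08 (adjusted p = 1.21e-07). The Pcyt1a means were 19.7 FPKM in vehicle kidneys and 44.1 FPKM in vehicle hearts. Its ethanolamine counterpart Pcyt2 was higher by 0.35 ± 0.10 (adjusted p = 0.00840), a difference that turned to -0.29 with equal summed FPKM and that in MaR1 rats (0.32 ± 0.10) did not pass without RB036 (0.28), RB037 (0.30) or RB039 (0.26).

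The phosphotransferases at the end of the pathway differed in direction. Chpt1, specific for choline, did not differ past the threshold in either arm, at -0.12 ± 0.17 (95% interval -0.49 to 0.24) in vehicle rats and -0.22 ± 0.15 in MaR1 rats. Leaving out 1 animal gave -0.28 (without RB030) to -0.03 (without RB034) in vehicle rats and -0.32 (without RB037) to -0.07 (without RB035) in MaR1 rats. Cept1, which accepts choline and ethanolamine, was lower in vehicle hearts (-0.79 ± 0.09, adjusted p = 4.85e-06). Selenoi, the ethanolamine-specific selenoprotein, was higher by 0.95 ± 0.10 (adjusted p = 2.19e-06): its vehicle kidneys held 4.25, 3.36, 4.16, 4.09 and 4.08 FPKM and its vehicle hearts 7.98, 9.89, 8.33, 6.94 and 7.81 FPKM. The lowest Selenoi heart was thus above the highest kidney. Chpt1 kept 83.5 ± 3.26% of the family total in vehicle kidneys and 83.9 ± 1.92% in vehicle hearts, while Selenoi went from 3.79 ± 1.14% to 8.25 ± 0.61%. Fragments of Chpt1 share positions with Sycp3 and Gnptab on the opposite strand.

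Among the enzymes that convert one phospholipid into another, Pemt, which methylates phosphatidylethanolamine and is known mainly from liver, was low in both organs and higher in the heart. Its vehicle kidneys held 1.25, 0.924, 0.892, 0.677 and 0.718 FPKM and its vehicle hearts 2.83, 2.67, 1.53, 2.64 and 2.59 FPKM. The groups did not overlap, and the difference was 1.08 ± 0.16 (adjusted p = 5.49e-05). Ptdss1, which makes phosphatidylserine from phosphatidylcholine, was lower in hearts (-0.70 ± 0.08, adjusted p = 7.97e-06). Ptdss2, which uses phosphatidylethanolamine, differed by -0.20 ± 0.07 (adjusted p = 0.0217) with overlapping groups, and no longer passed without RB031 (-0.18) or RB032 (-0.18). Pisd, the mitochondrial decarboxylase that turns phosphatidylserine into phosphatidylethanolamine, did not pass the test in vehicle rats (0.11 ± 0.07) or MaR1 rats (-0.02 ± 0.06), and with equal summed FPKM it stood at -0.52 and -0.61. Ptdss1 overlaps Mterf3, and Pisd overlaps Sfi1, on the opposite strand, as Lpcat3 and Pgs1 do Emg1 and Dnah17.

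Of the 7 lysophospholipid acyltransferases, 5 were lower and 1 higher in vehicle hearts, where 40.0% of all genes were lower and 37.0% higher. Lpcat1, known for making saturated lung surfactant, was the higher one: 2.77, 2.22, 2.37, 2.08 and 2.11 FPKM in kidneys and 5.58, 4.66, 4.78, 4.88 and 4.76 FPKM in hearts. These groups were separate, with a difference of 0.95 ± 0.09 (adjusted p = 8.23e-07). The lower ones were Mboat1 (-1.76 ± 0.13), Lpcat4 (-1.22 ± 0.09), Mboat2 (-0.96 ± 0.24), Mboat7, the enzyme for phosphatidylinositol (-0.95 ± 0.06), and Lpcat3, which places polyunsaturated chains in phosphatidylcholine (-0.43 ± 0.07), with adjusted p-values from 2.64e-08 (Mboat7) to 0.00321 (Mboat2). Lpcat2, which also makes platelet-activating factor, did not pass in vehicle rats (-0.31 ± 0.17) and passed in MaR1 rats (-0.47 ± 0.19, adjusted p = 0.0391), but not without RB036 (-0.45), RB037 (-0.41) or RB038 (-0.34). Mboat2 in hearts varied widely among animals: 0.357, 1.20, 0.275, 1.39 and 0.962 FPKM with vehicle and 0.977, 0.456, 0.449, 0.563 and 0.489 FPKM with MaR1. The 4 hearts above 0.9 FPKM (RB031, RB033, RB034 and RB035) were also the 4 with the highest summed atrial markers (930, 3424, 2021 and 1496 FPKM), and the part of that tissue in the Mboat2 level was not tested.

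CDP-diacylglycerol and cardiolipin synthesis also held an opposed pair. Cds1 measured 11.7, 15.8, 13.1, 12.9 and 15.1 FPKM in vehicle kidneys and 3.09, 2.33, 3.65, 2.62 and 3.03 FPKM in vehicle hearts. All kidneys were above all hearts, and the difference was -2.05 ± 0.12 (adjusted p = 8.74e-09). Cds2 measured 11.3, 10.9, 8.56, 9.27 and 8.92 FPKM in the kidneys and 12.7, 17.6, 15.7, 17.7 and 16.6 FPKM in the hearts. The hearts were higher throughout, by 0.69 ± 0.11 (adjusted p = 1.03e-04), and by 0.06 with equal summed FPKM, where the test was not passed. Pgs1, which makes the precursor of phosphatidylglycerol, was higher by 0.24 ± 0.08 (adjusted p = 0.0132), not past the threshold without RB033 (0.21) or RB034 (0.22), and at -0.36 with equal summed FPKM. Crls1, the cardiolipin synthase, was lower in hearts: its kidneys held 28.0, 45.0, 39.6, 40.1 and 44.3 FPKM and its hearts 12.9, 14.8, 14.7, 12.9 and 14.2 FPKM. The lowest Crls1 kidney, RB030, was well above the highest heart, and the difference was -1.45 ± 0.12 (adjusted p = 3.10e-07). The neighbours Cds1 (7820351 to 7882681) and Gpat3 (8714373 to 8766490) on chromosome 14 were both lower in the heart, while Cds2 (119515000 to 119553541) and Crls1 (120119852 to 120138655) on chromosome 3 differed in opposite directions, in the coordinates of the deposited table.

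The leading paralogue, the gene with the highest mean share of its family's FPKM, differed between the organs in 5 of 11 families of vehicle rats. Gpat4 led in the kidney and Gpam in the heart, Lpin2 and Lpin1, Cds1 and Cds2, Pcyt2 and Pcyt1a, and Ptdss1 and Ptdss2. In MaR1 rats there were 6, since Dgat2 led over Dgat1 in the kidney, at 56.7 ± 7.85% (48.3 to 69.6%) against 42.8 ± 4.77% in vehicle kidneys. Cds1 made up 58.3 ± 4.51% of its pair in vehicle kidneys and 15.7 ± 3.52% in vehicle hearts, with no overlap between libraries. Pcyt1a made up 46.2 ± 4.65% and 60.0 ± 2.85%, and Ptdss1 53.7 ± 0.90% and 44.8 ± 2.14%. With fragments not divided by gene length, Pcyt1a led in kidneys as well (61.9%) and Ptdss2 led in kidneys (52.1%), so for these 2 pairs the change of leader rested on the length correction. The choline kinases went the other way. Chkb led in both organs by FPKM, but by fragments Chka led in vehicle kidneys (54.3%) and Chkb in vehicle hearts (68.0%). Lpin2 in kidneys (68.3%) and Lpin1 in hearts (68.1%), Gpat4 (44.6%) and Gpam (64.4%), and Cds1 (70.0%) and Cds2 (76.3%) led on either measure. The lead of Gpam in hearts was narrow: its FPKM shares in vehicle hearts (40.5 to 56.9%) overlapped those of Gpat4 (31.6 to 51.7%). Without RB039, Gpat4 led in MaR1 hearts (46.7% against 45.2% for Gpam).

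**Figure D3:**
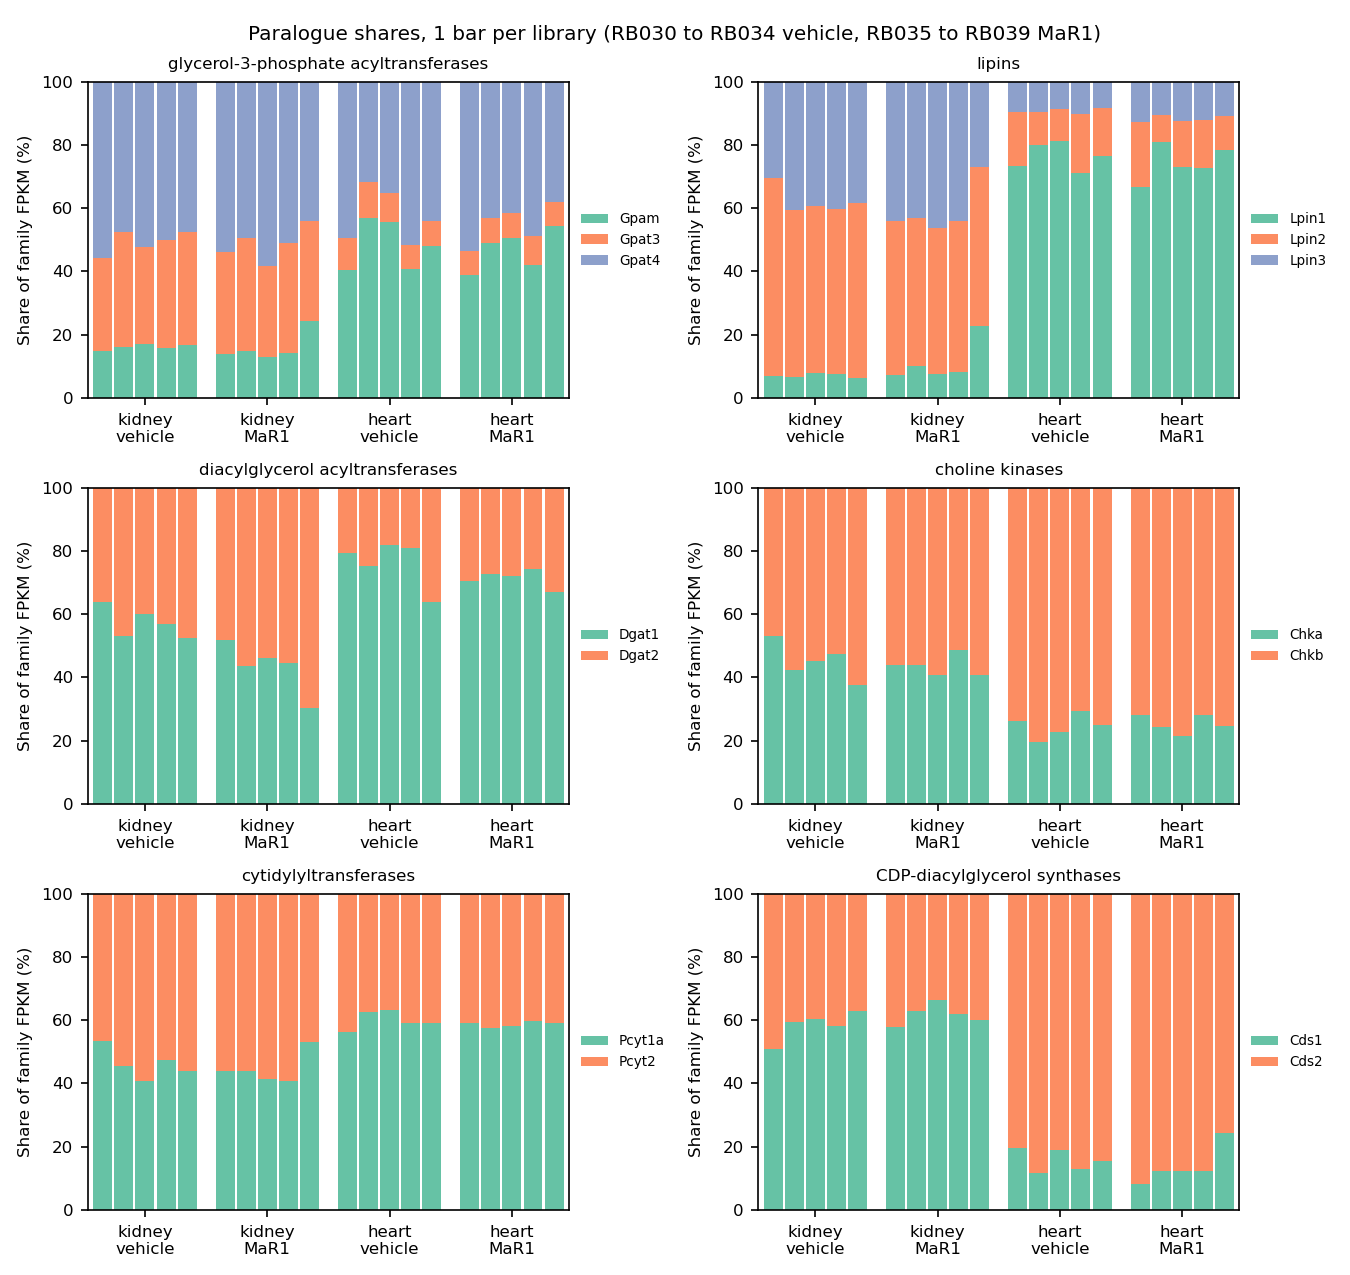
Share of each family's summed FPKM (vertical axis, %) held by each paralogue, 1 stacked bar per library, in 4 groups of 5 and 6 families. Lpin1 takes 71.0 to 81.1% of the lipin total in vehicle hearts and 6.47 to 7.96% in vehicle kidneys, and the last MaR1 kidney bar (RB039) has the largest kidney share of Gpam, Lpin1 and Dgat2.

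Other genes of the same pathways, in 7 lists outside the 35, were compared between vehicle hearts and kidneys, and 70 of the 73 listed genes were in the table. Of the 62 tested, 51 were called (82.3%), 26 higher and 25 lower, near the 77.0% of all genes. Of the choline and ethanolamine supply genes 3 were higher and 6 lower in hearts of 9 tested: the transporter Slc44a4 measured 40.3 ± 5.01 FPKM in vehicle kidneys and 0.0597 ± 0.0555 FPKM in vehicle hearts (-6.18 ± 0.10), and the phosphocholine phosphatase Phospho1 went from 0.599 ± 0.136 to 39.7 ± 5.38 FPKM (5.19 ± 0.12). Of the genes that interconvert phosphatidate and diacylglycerol 7 were higher and 4 lower of 13, and Plpp2 (-4.70 ± 0.12) and Dgkg (-4.55 ± 0.10), a phosphatidate phosphatase and a diacylglycerol kinase, were the most different. Among 5 genes that supply glycerol-3-phosphate 3 were lower, led by glycerol kinase Gk (-3.42 ± 0.12) and Gpd1 (-1.59 ± 0.17). Phospholipid breakdown genes were 10 higher and 7 lower of 18, with the secreted phospholipase genes Pla2g5 (5.90 ± 0.09) and Pla2g2a (5.17 ± 0.16) at the head. Other glycerolipid acyltransferases were 2 higher and 3 lower of 6 (Lclat1 -1.60 ± 0.15, Tmem68 -0.94 ± 0.09). Cardiolipin and phosphatidylinositol genes were 3 higher and 1 lower of 6 (Hadha 0.83 ± 0.18, Cdipt -0.44 ± 0.10), and ether lipid genes 1 higher and 1 lower of 5 (Gnpat 1.33 ± 0.10, Tmem86a -1.11 ± 0.20). None of these 7 lists had a gene called for MaR1 in either organ.

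MaR1 against vehicle was the treatment comparison of the study. In the kidney no member was called, 0 of 32 tested, and none of the 12446 genes tested was (0% called; limma voom on fragments recovered from the FPKM also called 0, and 907 genes had an unadjusted p under 0.05 with it). At an unadjusted p under 0.05 there were 2 members, against 6.75% of all genes. No member's groups were without overlap, where 1.23% of all genes had such groups, and the median difference was 0.00 for members and for all genes, with 16 members above and 16 below 0. The largest departure by p was Mboat2, a lysophospholipid acyltransferase. It measured 1.59, 2.28, 1.77, 2.00 and 2.15 FPKM in vehicle kidneys and 2.92, 2.63, 4.26, 2.64 and 2.21 FPKM in MaR1 kidneys. Of the MaR1 kidneys 4 were above all vehicle kidneys and RB039 was inside their range, with a difference of 0.46 ± 0.15 (95% interval 0.14 to 0.78, limma adjusted p = 0.658). Without RB037, the highest, it was 0.34 (adjusted p = 0.962), and without RB039 it was 0.54 (adjusted p = 0.128). RB037 also had the highest inner medulla marker sum, 35.9 FPKM, and these markers were higher in every MaR1 kidney than in any vehicle kidney. Their part in the Mboat2 values was not tested.

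Dgat2 was the other kidney gene with an unadjusted p under 0.05. It measured 6.81, 12.5, 9.36, 9.21 and 12.7 FPKM in vehicle kidneys and 10.9, 17.0, 13.2, 14.0 and 50.7 FPKM in MaR1 kidneys. The MaR1 kidneys overlapped the vehicle range only through RB035, and RB039 stood far above the rest. The summed adipocyte markers were also higher in each MaR1 kidney (28.7 to 521 FPKM) than in any vehicle kidney (11.4 to 24.0 FPKM). The median sums were 34.0 FPKM in MaR1 and 16.6 FPKM in vehicle kidneys. Cidec alone was a large part of them, at medians of 22.1 and 8.38 FPKM, and Lep was at 0 in all 5 vehicle kidneys. The part of adipose RNA in the Dgat2 values was not tested. The difference was 0.81 ± 0.36 (95% interval 0.02 to 1.61, limma adjusted p = 0.734), and 0.44 without RB039 (adjusted p = 0.310). The next members by p were Cds1 (0.16 ± 0.09, adjusted p = 0.758), Mboat7 (-0.11 ± 0.07), Agpat2 (0.55 ± 0.36) and Lpcat3 (-0.13 ± 0.08), the last 3 with an adjusted p of 0.812. Agpat2 stood at 0.14 without RB039, Cds1 at 0.10 without RB030, Mboat7 at -0.05 without RB037 and Lpcat3 at -0.09 without RB038. The upper bound of the 95% interval exceeded 1 for Agpat2 (1.34), Lpin1 (1.17) and Dgat2 (1.61), and no lower bound was under -1, so a change of that size was outside the interval of the other 29 members.

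The RB039 kidney set the spread of several of these genes. It was the highest of the 10 kidneys for 10 of the 32 tested members (15.7% of all genes) and the lowest for 3 (8.15%). For 5 members it exceeded every other kidney by more than 1.5 times, against 1.03% of all genes. Agpat2 measured 43.9 FPKM in RB039 and 8.78 to 12.3 FPKM in the other 9 kidneys, 3.56 times the next highest. Lpin1 measured 9.46 FPKM against 1.88 to 2.97 FPKM (3.19 times), and Dgat2 50.7 FPKM against 6.81 to 17.0 FPKM (2.98 times). Dgat1 (1.57 times) and Gpam (1.56 times) followed. The other 6 of the 11 tested genes of these 4 families (Gpat3, Gpat4, Agpat1, Agpat3, Lpin2 and Lpin3) lay within the range of the other kidneys. The 3 lowest were Lpcat1 (1.80 FPKM), Lpcat2 (1.54 FPKM) and Lpcat4 (4.08 FPKM). The same kidney held the adipocyte marker sum of 521 FPKM, with Adipoq at 120 FPKM and Plin1 at 45.0 FPKM, against at most 3.79 and 0.128 FPKM in vehicle kidneys. It also held the highest urothelium marker sum of the kidneys, 90.6 FPKM. The part of adipose or urothelial RNA in these values was not tested.

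In the left ventricle MaR1 also gave no call, 0 of 31 members tested and 0 of 12237 genes (0% called; 0 with voom, where 516 genes had an unadjusted p under 0.05). Only Pisd had an unadjusted p under 0.05, where 4.60% of all genes did, and no member's groups were without overlap (0.842% of all genes). The median difference was -0.02 for the members and 0.01 for all genes, with 13 members above and 18 below 0. Pisd measured 15.5, 13.2, 14.3, 13.9 and 14.6 FPKM in vehicle hearts and 13.2, 13.6, 12.5, 12.5 and 13.2 FPKM in MaR1 hearts. Vehicle RB031 lay among the MaR1 hearts and the other 4 above them, and the difference was -0.13 ± 0.06 (95% interval -0.26 to 0.00, adjusted p = 1.00). The next by p were Lpin3 (0.23 ± 0.11), Crls1 (-0.16 ± 0.08), Dgat2 (0.39 ± 0.28), Gpat3 (-0.18 ± 0.14) and Pemt (0.19 ± 0.15), all with an adjusted p of 1.00 in limma. Leaving out 1 animal gave 0.23 (without RB033) to 0.60 (without RB034) for Dgat2, -0.28 (without RB033) to -0.09 (without RB031) for Gpat3 and 0.06 (without RB032) to 0.24 (without RB037) for Pemt. For Dgat2 alone the 95% interval reached 1 (upper bound 1.00), and no lower bound was under -0.78.

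Whether MaR1 acted differently on the 2 organs was tested as the difference of the responses, ventricle minus kidney, over 12984 genes. No member of 33 was called and no gene was (0% called; 0 with voom, 586 with an unadjusted p under 0.05). Mboat2 alone had an unadjusted p under 0.05 (-0.69 ± 0.31, limma adjusted p = 0.881), against 5.50% of all genes. Pisd (-0.13 ± 0.08) and Lpin1 (-0.56 ± 0.40) followed with adjusted p-values of 0.978 and 0.980. Lpin1 stood at -0.31 without RB039, the rat whose kidney was high in adipocyte markers.

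**Figure D4:**
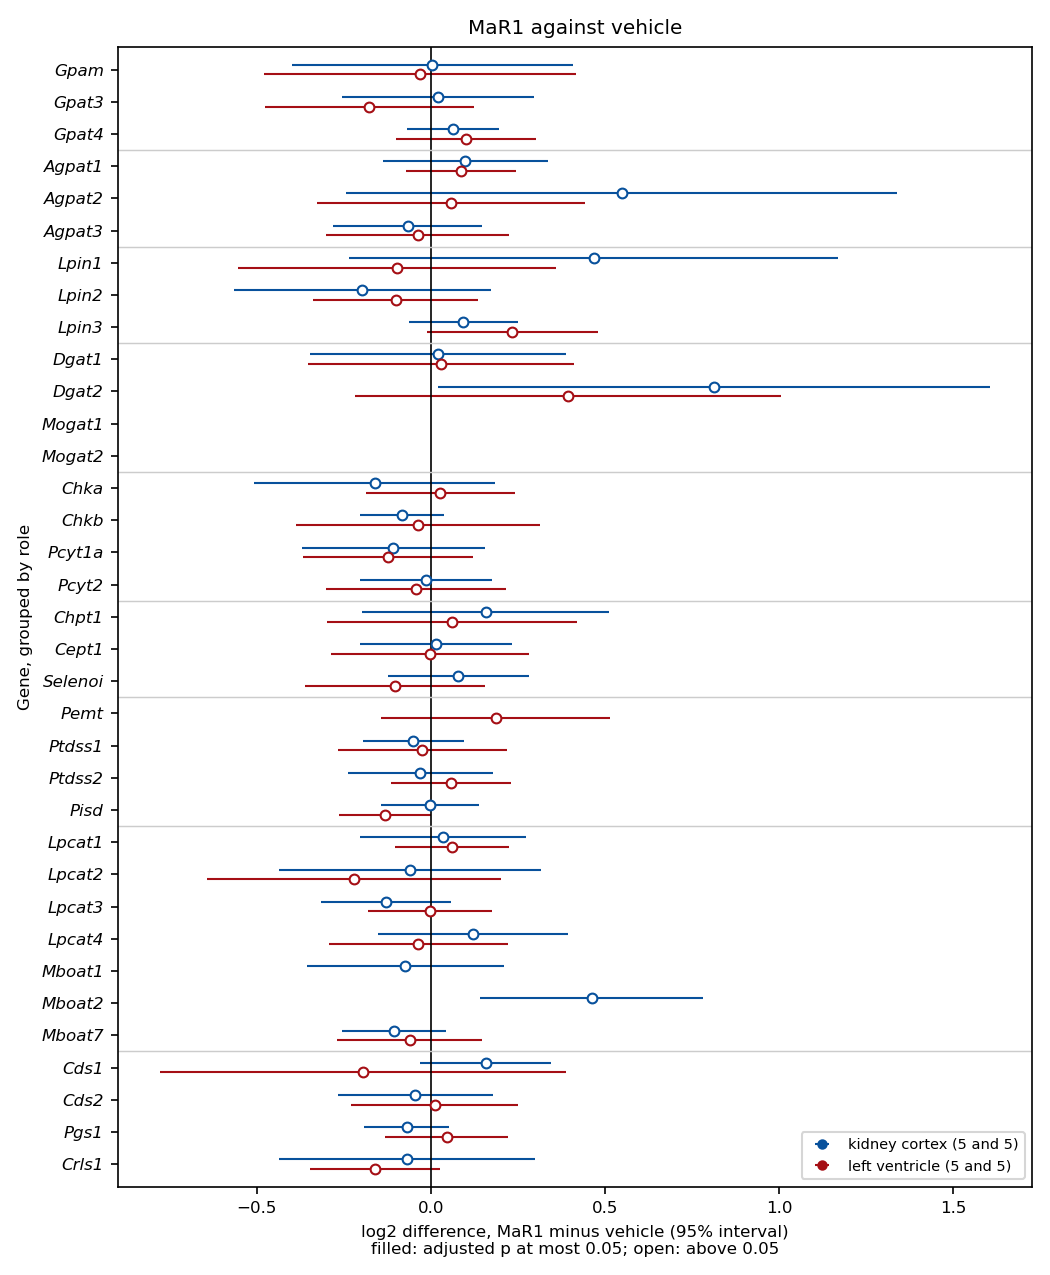
Differences between MaR1 and vehicle on the log2(FPKM + 0.5) scale with 95% intervals, for kidney cortex (blue) and left ventricle (red), 5 libraries per group; genes without a point had a mean under 1 FPKM. Every point is open (adjusted p above 0.05), and the widest intervals are those of Dgat2 (0.02 to 1.61), Agpat2 (-0.24 to 1.34) and Lpin1 (-0.23 to 1.17) in the kidney.

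Among the 10 hearts, the summed ventricular myocyte markers (7 genes) varied from 8512 FPKM in MaR1 RB035 to 15555 FPKM in MaR1 RB039, and many members varied with them. The relation was computed for each of 12237 genes with a permutation test (100000 permutations, Benjamini-Hochberg adjusted over all genes). It was called for 14 of 31 members, 12 positive and 2 negative, where 32.1% of all genes were called, 17.3% positive and 14.8% negative. Chpt1 followed the markers most closely (Pearson's r = 0.973, permutation p = 3e-05, adjusted p = 7.81e-04, Spearman's rho = 0.976, permutation p = 7e-05). Its vehicle hearts held 82.5, 90.7, 97.4, 66.5 and 80.5 FPKM and its MaR1 hearts 60.3, 105, 94.7, 76.1 and 106 FPKM. The lowest heart of each arm, RB033 and RB035, also had the lowest marker sums, 9115 and 8512 FPKM. Dgat1 (r = 0.958, rho = 0.939), Lpin1 (r = 0.944, rho = 0.891), Chkb (r = 0.936, rho = 0.891), Pcyt1a (r = 0.915, rho = 0.818), Selenoi (r = 0.879, rho = 0.903), Gpam (r = 0.869, rho = 0.891) and Lpcat3 (r = 0.826, rho = 0.818) were also positive, with permutation p-values from 2e-05 (Dgat1) to 0.00306 (Lpcat3). Agpat2, Lpin3, Gpat3 and Pcyt2 were positive at r = 0.738 to 0.782.

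Ptdss1 (r = -0.951, permutation p = 1.6e-04, rho = -0.891) and Lpcat4 (r = -0.815, permutation p = 0.00331, rho = -0.818) were the 2 negative members. Ptdss1 was highest in the same RB035 (13.2 FPKM) and RB033 (12.3 FPKM) hearts and ranged from 8.96 to 11.4 FPKM in the others. Without those 2 hearts, the farthest from the median marker sum, r was 0.919 for Chpt1, 0.899 for Dgat1, 0.884 for Lpin1 and -0.850 for Ptdss1, but 0.343 for Agpat2, 0.449 for Gpat3 and 0.415 for Pcyt2, whose relation therefore rested on them. With every library at equal summed FPKM only Chpt1 (r = 0.898), Dgat1 (0.868), Lpin1 (0.841) and Chkb (0.785) of the positive members passed. The 4 negative members were then Ptdss1, Lpcat4, Cept1 (r = -0.867) and Cds2 (r = -0.796). Of all 12237 genes 458 were called positive and 1929 negative with that scaling, and the median r of all genes was -0.483. RB033 and RB035 also carried atrial markers (3424 and 1496 FPKM). No correlation was computed within an arm of 5 hearts, and the part of tissue makeup in these relations was not tested.

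**Figure D5:**
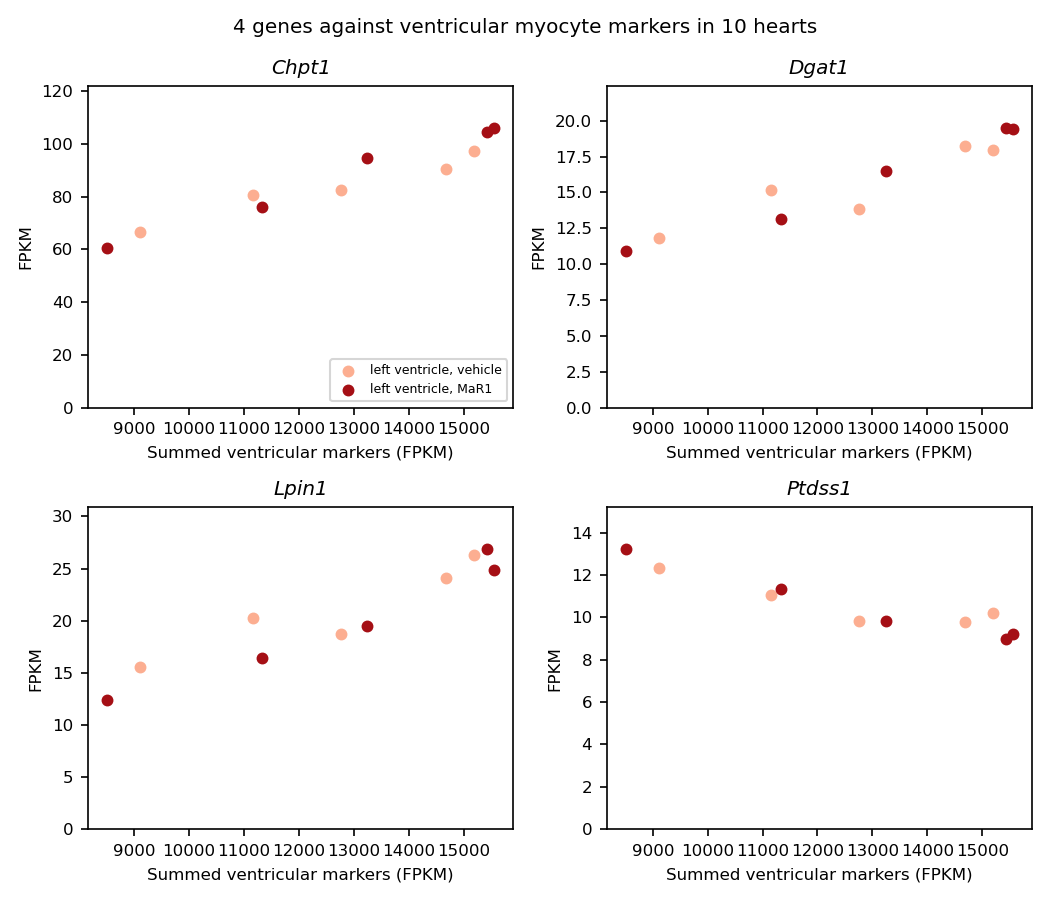
FPKM of Chpt1, Dgat1, Lpin1 and Ptdss1 (vertical axes) against the summed FPKM of 7 ventricular myocyte markers (horizontal axes) in 5 vehicle and 5 MaR1 hearts, 1 point per heart. Chpt1, Dgat1 and Lpin1 go up with the marker sum (r = 0.973, 0.958 and 0.944) and Ptdss1 goes down (r = -0.951) over the 10 hearts.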

How the data were processed

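RNA was measured in 20 libraries from 10 rats. Per the submitters' processing notes the authors used fastp, HISAT2 2.0.5, StringTie 1.3.3b and featureCounts 1.5.0-p3; the genome build, the fastp version and strandedness are not given in the sources used here. The authors deposited FPKM for 30560 genes. Whole fragments were recovered from these FPKM and the gene lengths for 100% of 371175 values above 0, to within 0.01 fragment. Tests used limma 3.58.1 (R 4.3.3, trended variance) on log2(FPKM + 0.5), a scale on which changes of low genes appear smaller, for genes averaging 1 FPKM or more in the libraries of a comparison, with Benjamini-Hochberg adjustment over all genes tested. Organ comparisons were made within an arm, treatment comparisons within an organ. Depth was 19383232 to 30342034 assigned fragments. Each group holds 5 separate animals, whose spread sets the p-values.

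Both organs come from the same animals by the labels. Deviations from the group means correlated at -0.02 to 0.14 between an animal's 2 organs (2 of 10 above 0.1, 2 of 10 best with their own). The scripts were tested on simulated data. All 35 members are named for levels and organ differences, the 6 of smallest p for each MaR1 response, the 3 of smallest p for their difference, and at most the 2 of largest absolute organ difference with vehicle in each other pathway list. The members, lists, markers and tests were chosen with earlier results of these data known. Alternatives were other pseudocounts, filters, scalings, voom, no variance trend, the animal as a block and each animal left out; the closing section gives their effect. Promoters came from RefSeq (GRCr8), with 29 of 35 members matched. Of the marker genes Synpo, Pvalb and Pln, and of the pathway genes Tafazzin, Prelid1 and Triap1, were not matched by symbol.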

Additional observations from a re-analysis of the deposited data

Results flagged for a closer look

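Within groups of 5 libraries, the highest or lowest sample stood apart from the others by Dixon's gap criterion in 16 of 140 groups of member genes. For independent, normally distributed values the criterion flags about 1 in 20 groups. The groups here share the same 20 libraries, and the share over all genes was not computed.

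The MaR1 kidney of RB039 accounted for 6 of the 16 flagged groups, all on the high side: Gpam at 11.4 FPKM, Agpat2 at 43.9 FPKM, Lpin1 at 9.46 FPKM, Lpin2 at 21.0 FPKM, Dgat1 at 22.2 FPKM and Dgat2 at 50.7 FPKM. Lpin2 in the RB039 kidney was nevertheless below the vehicle kidney of RB030, which stood above its own group at 26.3 FPKM. The summed adipocyte markers of the RB039 kidney, 521 FPKM, stood apart as well.

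Among the other kidneys, MaR1 RB037 was low for Chpt1 (84.7 FPKM) and vehicle RB031 was low for Selenoi (3.36 FPKM). In vehicle hearts, RB030 was high for Pcyt2 (34.7 FPKM) and for Lpcat1 (5.58 FPKM), and RB032 was low for Pemt (1.53 FPKM). In MaR1 hearts, RB035 was high for Cept1 (10.8 FPKM), Lpcat2 (2.54 FPKM) and Mboat2 (0.977 FPKM), and RB039 was high for Cds1 (5.86 FPKM). Of 28 groups of summed markers 3 had such a sample: the adipocyte sum above, the inner medulla sum of the MaR1 heart of RB035 (3.43 FPKM) and the urothelium sum of the vehicle kidney of RB034 (4.87 FPKM).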

How the results depend on the processing

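Bringing every library to equal summed FPKM changed organ directions. It moved the median of all genes by -0.60 in vehicle and -0.57 in MaR1 rats, and the calls from 4803 higher and 5186 lower to 2507 and 8095 (vehicle), and from 4925 and 5245 to 2670 and 8141 (MaR1). Vehicle members called higher became 6. Signs turned for Agpat2 (-0.12 vehicle, -0.59 MaR1), Dgat1 (-0.43, -0.40), Chkb (-0.43, -0.36), Pcyt2 (-0.29, -0.29) and Pgs1 (-0.36, -0.22), and for Pisd (-0.52) in vehicle rats. The heart relation then held 4 positive and 4 negative members, where 458 and 1929 of 12237 genes were called. Pisd in MaR1 rats was 0.038 after quantile normalization. Leaving out 1 animal gave organ differences in MaR1 rats of -0.14 (without RB036) to 0.33 for Agpat2 and -0.046 to 0.0091 for Pisd, and 0 to 1 genes called in the kidney (1 without RB035) and 0 to 3 for the difference of responses (3 without RB035 or RB039, 1 without RB036). The latter was 1 with a pseudocount of 0.1 and 1 with no variance trend. Alternatives chosen after seeing the data left out the 2 kidneys highest in adipocyte markers (RB036 and RB039), with 283 genes called in the kidney, 112 for the difference of responses and no member in either, and MaR1 Ptdss2 at 0.012; and the 5 hearts high in atrial markers, with MaR1 Chpt1 at 0.012. The replicate block on the animal called 28 members in vehicle and 27 in MaR1 rats and changed no member's call. The causes of these changes were not tested. Precision at low levels is limited by depth.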

Other observations

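Single libraries lay at the end of the range for several members. Vehicle kidney RB030 had the lowest level of the 10 kidneys for Chpt1 (58.4 FPKM), Agpat1 (30.7 FPKM) and Dgat2 (6.81 FPKM), and the highest for Lpin2 (26.3 FPKM), Chka (13.0 FPKM) and Mboat1 (5.15 FPKM). Its summed FPKM, 353767, was also the lowest of the 20 libraries. In the MaR1 heart of RB039 Cds1 measured 5.86 FPKM, against 1.53 to 3.65 FPKM in the other 9 hearts, and made up 24.4% of the Cds1 and Cds2 total there.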
